A study of Mus musculus with 2 samples.

Results

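The inflammatory Il1b and Thbs1 high monocytes described here were 816 cells of the 18252 in both libraries, 394 of 7688 in library 1 and 422 of 10564 in library 2. They were chosen from their own counts of unique molecular identifiers (UMIs, counted transcripts). A cell needed at least 500 UMIs, at most 10% mitochondrial UMIs, under 0.4% of UMIs from the pigment genes Pmel, Mlana, Dct and Tyrp1, and none from Cd3d, Cd3e, Cd3g or Flt3. It could hold at most 1 UMI of the complement genes C1qa, C1qb and C1qc and at most 2 of S100a8 and S100a9. At least 3 UMIs of Lyz2, Chil3, Vcan, F13a1, Plac8 and Ly6c2 were required, and these 3 conditions set the pool of monocytes. Within that pool, a member had more UMIs of Il1b, Thbs1, Cxcl2 and Clec4e together than of Plac8, Hp, Ifitm6 and Napsa together.

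The cells were viable CD45+ cells, CD45 being the surface protein shared by white blood cells, sorted 2 weeks after mice had been injected with B16F10, a melanoma line of mouse origin. One sample came from control mice of genotype LysM-cre x Rel+/+ and the other from mice of genotype LysM-cre x RelloxP/loxP, so both carried the Cre transgene, which the LysM promoter drives in myeloid cells, and they differed in the loxP-flanked Rel allele. Each sample pooled 5 tumours, which were digested for 20 min at 37 °C in both samples. Each gave 1 droplet 3′ library, sequenced towards an average of 10000 reads a cell. Cell barcodes carried only the ending 1 or 2, which no label tied to a genotype, and the libraries go by these numbers here. Neither was assigned a genotype, no test was possible with 1 library a genotype, and all 95% intervals cover counting error only.

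Monocytes enter tumours from the blood, where the classical kind carries the chemokine receptor Ccr2, and they mature there into macrophages, which make the C1q proteins. A monocyte that senses microbial or damage signals switches on the transcription factor NF-kB, of which c-Rel, encoded by Rel, is a subunit, and makes the cytokine interleukin-1β (Il1b) and chemokines such as Cxcl2, which draws neutrophils. Thbs1 encodes thrombospondin-1, a secreted matrix protein that restrains blood vessel growth, Clec4e encodes Mincle, a receptor for microbial glycolipids and dead cells, and Vcan encodes the matrix proteoglycan versican.

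The pool held 664 cells in library 1 and 649 in library 2. The members were 59.3% of it in library 1 (exact Clopper-Pearson interval 55.5 to 63.1) and 65.0% in library 2 (61.2 to 68.7). Pool cells with the opposite balance, called classical monocytes here, numbered 245 and 185, and 25 and 42 cells were tied. Macrophages for comparison (at least 5 UMIs of the C1q genes) numbered 498 and 636, and neutrophils (at least 10 UMIs of S100a8 and S100a9) 135 and 81. The median member held 1918 UMIs in library 1 and 1063 in library 2, against 1674 and 989 in classical monocytes, 3400 and 2518.5 in macrophages and 644 and 710 in neutrophils. The median mitochondrial share of members was 2.25% and 2.40%. Of the 3609 barcode sequences found in both libraries, 2 belonged to members, both in library 1. These 2 cells held 18845 and 24375 UMIs, 5.18% of all UMIs of library 1's members, against 5237 in the next largest member there. Whether they were doublets was not tested. Counts of genes against classical monocytes and between libraries are also given below without barcodes found in both libraries.

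The label was checked against marker lists. At least 3 UMIs of the 5 marker genes Il1b, Thbs1, Cxcl2, Clec4e and Vcan were found in 391 of 394 and 393 of 422 members, which the choice of members largely fixed. Ccr2, which the choice did not use, stood at 418 CPM (UMIs of a gene per 1000000 UMIs of the class) in library 1 and 348 in library 2, against 112 and 25.3 CPM in macrophages and 17.8 and 65.4 in neutrophils. Macrophage genes were present at a lower level, with all 12 of the list seen and a summed 4689 CPM in library 1's members against 28851 in its macrophages. The list held the 3 C1q genes, so the choice of cells fixed part of this gap. Classical monocytes had less of the list than members, a summed 1957 and 3921 CPM against 4689 and 5222. The neutrophil genes Mmp9 and Cxcr2 were at 0 in both libraries, which allows at most 3.60 and 5.86 CPM for a count of 3, and the 10 genes of that list summed to 222 and 455 CPM. No member of either library held 3 UMIs of the T or B cell lists, and 4 and 1 held 3 of the NK cell list. Of the non-classical monocyte list, 42 (10.7%) and 8 (1.90%) held 3. The choice of members had excluded the Cd3 genes of the T cell list and capped S100a8 and S100a9 of the neutrophil list. It thus fixed part of the results for these 2 lists. Melanoma genes summed to 500 and 887 CPM, so melanoma transcripts were measurable in members of both libraries.

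The 4 genes that chose the members, described here without a test, lie on 3 chromosomes of mm10 in GENCODE vM21. They are Il1b at chr2:129364570-129371139 on the minus strand, Thbs1 at chr2:118111876-118127133 on the plus strand, Cxcl2 at chr5:90903871-90905938 on the plus strand and Clec4e at chr6:123281789-123289870 on the minus strand. Cxcl2 was the most abundant, at 8654 CPM in the members of library 1 (exact Poisson interval 8456 to 8856) and 5277 in library 2 (5080 to 5480). Il1b stood at 7079 CPM (6900 to 7262) and 4341 (4162 to 4525). Both were thus higher in library 1, by more than the counting error. Thbs1 went the other way, with 1450 CPM (1370 to 1534) in library 1 and 2112 (1988 to 2242) in library 2. Clec4e, at 873 and 865 CPM, and Vcan, at 422 and 436 CPM, differed between the libraries by less than the counting error. CPM of 3′ counts were not scaled to transcript length, since 1 UMI stands for 1 captured transcript end.

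Neutrophils of the same libraries held more Cxcl2 than the members, 35059 and 10145 CPM, and in library 1 also more Il1b, at 9403 CPM against 2549 in library 2. Macrophages held 4179 and 1264 CPM of Cxcl2, 1320 and 250 of Il1b and 175 and 182 of Thbs1. Members had been chosen by these genes and macrophages had not, so the lower levels in macrophages are no test. Cells with at least 1% pigment gene UMIs, at median depths of 10786 and 9518.5 UMIs, held 19.7 and 11.3 CPM of Il1b and 4.24 and 4.79 of Thbs1. These levels were under those of every class of myeloid cell here. The myeloid cells were shallower, however, and the same free RNA would be a larger share of their UMIs. The background of free RNA in members was not estimated. The classical genes did not vanish from members. Plac8 remained at 1347 CPM in library 1 and 869 in library 2, against 2324 and 2456 in classical monocytes, and Hp, which encodes haptoglobin, at 469 and 346 CPM against 476 and 531. Chil3, a monocyte lectin that counted towards the pool but not towards the split, stood at 2110 and 3870 CPM in members against 1574 and 2834 in classical monocytes.

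**Figure D1:**
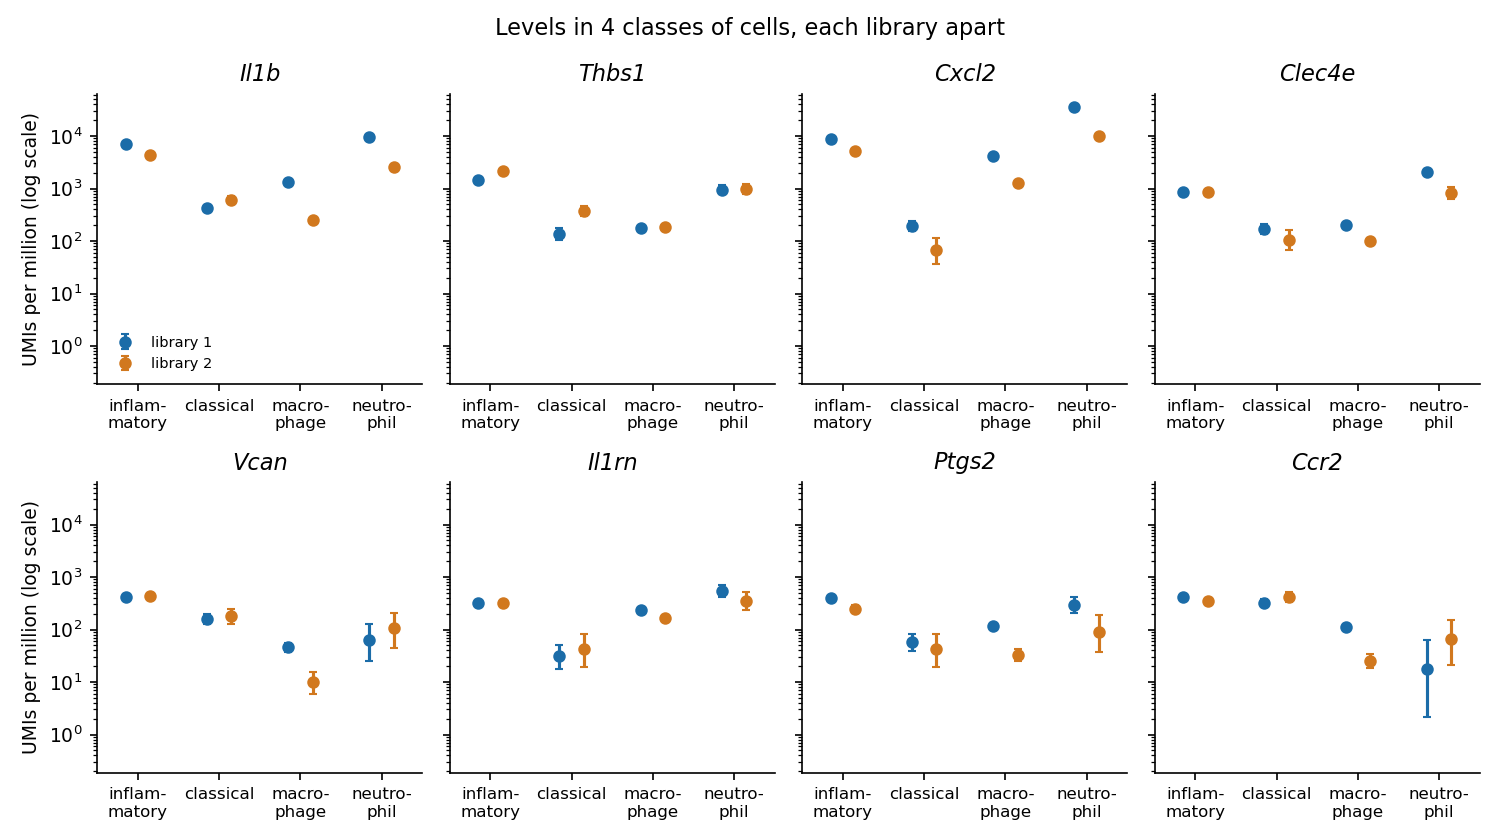
Level of 8 genes in CPM (log axis) in members, classical monocytes, macrophages and neutrophils of each library; points are the summed level of a class and bars are exact Poisson 95% intervals. Il1b, Thbs1, Cxcl2, Clec4e and Vcan chose the members; Il1rn, Ptgs2 and Ccr2 did not, and Il1rn was at 324 and 318 CPM in members against 31.1 and 43.1 in classical monocytes.

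The margin, the UMIs of the 4 inflammatory genes minus those of the 4 classical genes, had a median of 21 in library 1 (quartiles 10 and 45.75) and 7 in library 2 (quartiles 3 and 16). It was 1 or 2 UMIs in 34 members of library 1 (8.63%) and 95 of library 2 (22.5%), so the group had no gap at its edge, and it moves with depth. The members just inside, with a margin of 1, held a median of 7.5 inflammatory and 6.5 classical UMIs in library 1 and of 3 and 2 in library 2. The tied cells just outside held a median of 1 and 1 in both libraries. Prostaglandin synthase 2 (Ptgs2), outside the rule, stood at 63.4, 84.4, 213 and 499 CPM in library 1's members with margins of 1 to 2, 3 to 5, 6 to 10 and over 10. The values in library 2 were 116, 43.7, 128 and 436 CPM. The interleukin-1 receptor antagonist Il1rn, likewise outside the rule, had 42.2, 101, 230 and 397 CPM in library 1 and 202, 197, 277 and 441 CPM in library 2. These 2 genes were picked from 16 after their values had been seen, and the tied cells of library 1, at 143 CPM of Il1rn, stood above its members with margins of 1 to 5. Not all of the 16 were highest at the widest margin: Spp1 had 42.2, 2295, 98.4 and 2126 CPM in library 1, and Cd74 had 2340, 1223, 734 and 2126 CPM in library 2. Members with the widest margin were also deeper: their median depth was 2028 and 1158 UMIs against 1724 and 933 in those with the narrowest. Yet library 1's 34 members with margins of 1 to 2 held 94706 UMIs, against 59266 in the 37 with margins of 3 to 5. A few deep cells thus weighed on the CPM of the narrowest band, which held 6 UMIs of Ptgs2 and 4 of Il1rn. The band of the 2 deep barcodes found in both libraries was not looked up. Levels by margin are not given without them.

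To compare shares of cells at equal depth, each cell was thinned to 1000 UMIs, which left 374 members in library 1 and 246 in library 2 and set aside 20 and 176 shallower ones. Il1b was then seen in 91.2% and 80.5% of members (unthinned 93.4% and 82.2%). Cxcl2 was seen in 77.8% and 63.0% (unthinned 81.0% and 56.4%), Clec4e in 53.2% and 45.1% (76.1% and 55.0%) and Vcan in 30.2% and 29.3% (42.6% and 29.6%). Thbs1, in contrast, was seen in 52.9% in library 1 and 71.5% in library 2 (unthinned 62.7% and 72.3%). In macrophages, which had not been chosen by these genes, Il1b was in 34.7% and 10.7% and Thbs1 in 13.7% and 12.2% at the same depth of 1000 UMIs. A UMI of all 4 genes was found in 28.1% and 22.4% of members and of none of them in 1.07% and 2.44%. Both Il1b and Thbs1 were found in 48.1% and 59.8%, Il1b without Thbs1 in 43.0% and 20.7%, and Thbs1 without Il1b in 4.81% and 11.8%. Members with Il1b alone were thus the smaller share in library 2, and members with Thbs1, with or without Il1b, the larger.

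Among the thinned members, the pairs of programmes moved only loosely. Spearman's rho between Il1b and Thbs1 was 0.03 over 374 members of library 1 and 0.21 over 246 of library 2. Il1b against the summed NF-kB inhibitors gave 0.29 and 0.35, and Thbs1 against Cxcl2 gave 0.26 and 0.31. Thbs1 against the summed MHC class II genes, which present antigen to helper T cells, gave -0.29 and -0.25, the only one of these pairs with a negative sign. These values are descriptions over cells that share a library, and the genes of the rule entered all 4 of them.

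Promoters are shown for 3 genes made by the members, from the RefSeq table for GRCm38.p6, as 250 bases before and 50 after the annotated start. Cxcl2 was chosen as the most abundant gene of the rule, Cxcl3 as its near relative that was among the leading genes of a subgroup in both libraries, and Ptgs2 as an enzyme gene outside the rule. Capitals in Cxcl2 and Cxcl3 mark the NF-kB letters GGGNNTTTCC and in Ptgs2 the C/EBP letters TTGCNNAA, searched on both strands. The windows are chr5:90903649-90903948, chr5:90785851-90786150 and chr1:150099781-150100080, all on the plus strand.
Cxcl2: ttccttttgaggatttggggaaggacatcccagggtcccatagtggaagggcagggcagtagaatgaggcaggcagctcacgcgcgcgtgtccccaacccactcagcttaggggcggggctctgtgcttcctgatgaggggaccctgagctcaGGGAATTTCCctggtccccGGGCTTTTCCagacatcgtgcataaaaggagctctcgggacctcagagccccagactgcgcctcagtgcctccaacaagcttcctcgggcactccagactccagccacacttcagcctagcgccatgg
Cxcl3: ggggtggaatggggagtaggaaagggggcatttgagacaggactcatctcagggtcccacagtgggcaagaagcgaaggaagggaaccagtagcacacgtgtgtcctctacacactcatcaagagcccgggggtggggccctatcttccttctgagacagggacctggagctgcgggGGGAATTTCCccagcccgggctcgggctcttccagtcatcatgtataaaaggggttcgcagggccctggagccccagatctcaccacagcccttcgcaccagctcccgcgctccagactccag
Ptgs2: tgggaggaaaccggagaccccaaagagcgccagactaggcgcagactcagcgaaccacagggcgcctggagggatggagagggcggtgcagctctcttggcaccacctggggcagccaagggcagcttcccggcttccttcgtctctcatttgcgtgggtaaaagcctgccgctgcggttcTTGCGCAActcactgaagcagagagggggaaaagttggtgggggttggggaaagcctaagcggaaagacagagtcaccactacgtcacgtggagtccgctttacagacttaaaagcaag
Cxcl2 held 2 NF-kB matches, at -97 and -78 from the start, and Cxcl3 held 1, at -73. The C/EBP match of Ptgs2 was at -69, and no match marked here overlapped one of another motif. Of 22 genes looked up (the 8 genes of the split, Vcan, Cxcl3 and the 12 genes ranked highest against classical monocytes by the smaller of both libraries' ratios), 15 had an entry. The NF-kB letters were in 3 of the 15 (Cxcl2, Cxcl3 and Il1rn), the C/EBP letters in 7, the AP-1 letters TGAGTCA in 1 and the hypoxia letters ACGTG in 6. Of all 32851 promoter windows, 1.63% held the NF-kB letters, 10.8% the C/EBP letters, 5.20% the AP-1 letters and 19.6% the hypoxia letters. Il1b held none of the 4. A match is a run of letters and not a measured binding site.

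Against classical monocytes of the same tumours, the members carried more of Il1rn and Nlrp3 and of part of the NF-kB feedback, chemokine and pattern receptor lists. They also carried more of Spp1, Ptgs2, Arg1 and Inhba, the last 2 of which were not counted without 1 subgroup described below. A gene was counted as higher where its CPM ratio was at least 2 in both libraries, and as lower at 0.5 or less in both, among genes with 50 or more UMIs in the 2 classes together in each library. Every gene used to choose cells was left out. Members held 834278 and 511876 UMIs in all, against 482833 and 208869 in classical monocytes. The minimum of 50 UMIs was thus met more readily by genes of members. Of 1978 genes, 76 were higher (3.84%) and 22 lower (1.11%), and the median log2 ratio over all of them was 0.02 in library 1 and 0.03 in library 2. Both classes were cut from 1 pool of cells by their own counts, so these ratios describe how the pool divides and are no test. Without barcodes found in both libraries the counts were 80 and 22.

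Of the interleukin-1 family, Il1rn, whose product blocks the interleukin-1 receptor, was at 324 CPM in members against 31.1 in classical monocytes of library 1, a ratio of 10.4 (exact binomial interval 6.20 to 18.9). In library 2 it was at 318 against 43.1 CPM, a ratio of 7.39 (3.80 to 16.5). Its level in members differed between the libraries by less than the counting error. Nlrp3, the sensor of the inflammasome that matures interleukin-1β, was at 579 against 74.6 CPM and at 326 against 120 CPM, ratios of 7.76 and 2.73. These were 2 of the 4 genes of the interleukin-1 list deep enough to compare.

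Of 10 NF-kB inhibitors and feedback genes, 6 were higher and none lower, with a median log2 ratio of 1.76 and 1.34. Nfkbiz, which encodes the nuclear inhibitor-like protein IkB-zeta, stood at 986 CPM in members of library 1 (298 in classical monocytes) and at 326 in those of library 2 (101). Its ratio, 3.31 and 3.24, was close in both libraries although its level was not. Tnip3, an A20-binding inhibitor, had ratios of 3.40 and 3.38, and the survival genes Bcl2a1b and Cflar 6.21 and 3.06, and 4.10 and 2.42. Nfkbia and Tnfaip3, the classical feedback inhibitors, were the other 2. Of the NF-kB subunits, 2 could be compared and neither was counted. In library 1 Rel had 410 CPM against 166 (ratio 2.47), and in library 2 113 against 81.4 (1.39), and Nfkb1 had ratios of 0.865 and 1.13.

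Of 11 other chemokines, 5 were higher. In library 1 Ccl2, the ligand of Ccr2, had 645 CPM against 74.6, and in library 2 it had 485 against 115, ratios of 8.65 and 4.22. Ccl7, another Ccr2 ligand, had ratios of 18.9 and 3.15, and Ccl6, an abundant one at 1975 and 2549 CPM, 3.78 and 2.45. Ccl9 and the platelet factor gene Pf4 were the others. Pf4 had 446 against 33.1 CPM and 264 against 28.7 CPM. Of 8 chemoattractant receptors, Ccr1 (2.47 and 2.73) and the complement receptor C3ar1 (5.50 and 2.79) were higher, and Ccr2 was not, at 418 against 325 CPM and 348 against 421 CPM.

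Of 9 pattern recognition receptors, 5 were higher, with a list median log2 ratio of 2.06 and 1.11. Clec4d and Clec4n, which encode C-type lectin receptors for fungal and mycobacterial glycans and lipids, as Clec4e does, had ratios of 5.26 and 3.77, and of 8.74 and 5.14. In members, Clec4d stood at 360 and 397 CPM and Clec4n at 362 and 246 CPM. Tlr2, the lipoprotein receptor, had ratios of 4.18 and 2.89 and Cd14, the endotoxin co-receptor, 5.90 and 2.49. Trem2, a lipid receptor of macrophages, completed the 5 at 2.47 and 2.17.

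Secreted matrix, protease and clotting genes were higher in 5 of 9 cases. Spp1, which encodes osteopontin, showed the widest range, with 1754 CPM against 37.3 (ratio 47.0, 29.7 to 79.6) in library 1 and 1577 against 369 (4.28, 3.38 to 5.48) in library 2. One cell held 27.3% of its UMIs among members of library 1 and 1 cell 8.67% in library 2. F10, coagulation factor X, was steadier, with 646 and 496 CPM in members and ratios of 3.71 and 3.24. The elastase Mmp12, the sheddase Adam8 and the heparan sulphate proteoglycan Sdc4 were the other 3. Both growth factor genes deep enough to compare were higher, Inhba, the activin A subunit, at 185 against 10.4 CPM and 211 against 52.7 CPM, and Vegfa at ratios of 5.08 and 2.28.

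Of 13 genes tied to immune suppression, 5 were higher. Arg1, the enzyme that breaks down arginine, had 340 CPM in members and 33.1 in classical monocytes of library 1 (ratio 10.3, 6.22 to 18.2), and 274 and 47.9 in library 2 (5.71, 3.02 to 12.2). Ptgs2, which makes the precursor of prostaglandin E2, stood at 399 against 58.0 CPM (6.88, 4.68 to 10.5) and 244 against 43.1 CPM (5.67, 2.89 to 12.7). The 3 others were Havcr2, Trem2 and Spp1. At 1000 UMIs per cell Arg1 was seen in 9.36% and 10.2% of members, and Ptgs2 in 26.7% and 17.9% against 3.60% and 4.40% of classical monocytes, so both transcripts were seen in a minority of members.

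Of 21 hypoxia and glycolysis genes, 6 were higher, among them the glucose carrier Slc2a1 (ratios 3.07 and 3.48), the oxygen sensor Egln3 (5.37 and 2.81) and the lipid droplet gene Hilpda (7.70 and 3.07). The list's median log2 ratio was 0.71 and 0.85. The cystine carrier Slc7a11 (5.61 and 7.07) and the small GTPase gene Rab20 (7.81 and 8.02) were among the 12 genes ranked highest by the smaller of both libraries' ratios. No gene was counted in either direction among 8 MHC class II genes, 12 interferon response genes or 10 heat shock genes. Their median log2 ratios were -0.30 and -0.40, 0.14 and -0.08, and -0.08 and 0.06. Of all genes 3.84% were higher and 1.11% lower, so a count of 0 in lists this short is near the overall share.

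**Figure D2:**
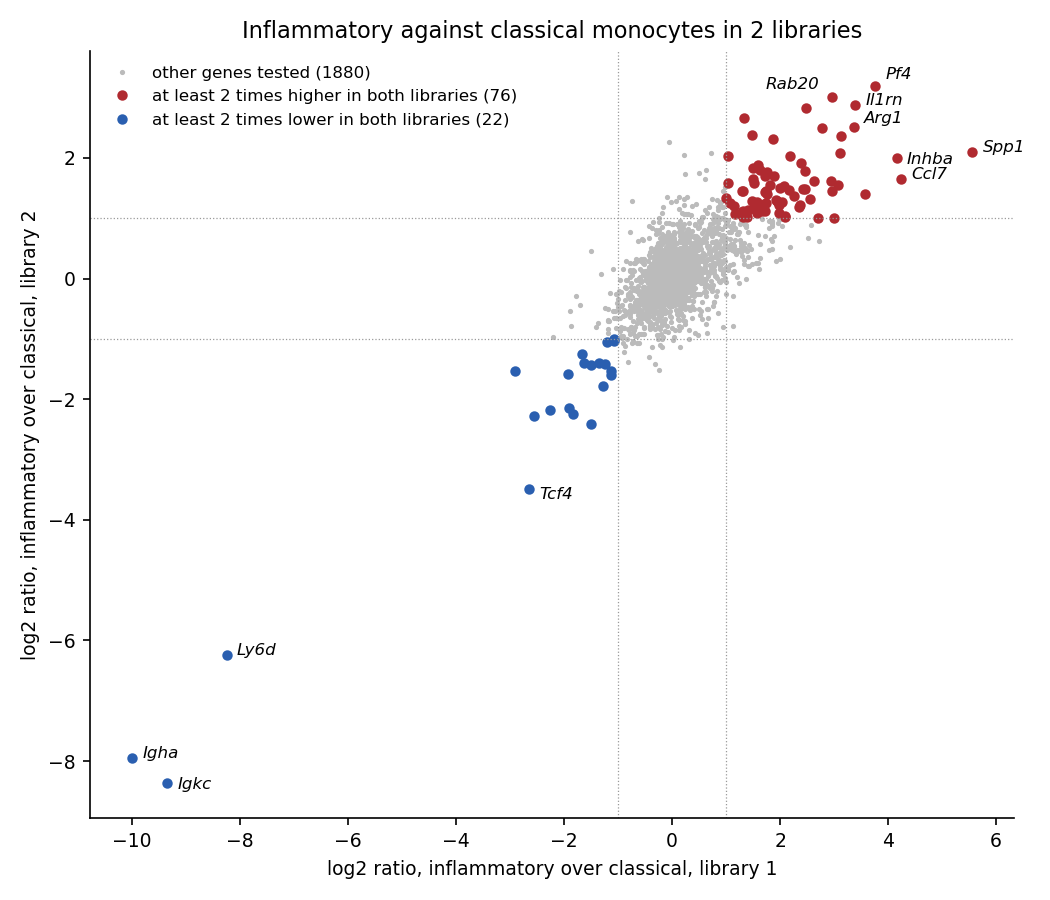
Log2 ratio of members to classical monocytes in library 1 (horizontal) and library 2 (vertical) for 1978 genes; each point is a gene. The 76 genes at least 2 times higher in both libraries are red, the 22 lower in both are blue and the other 1880 are grey; most genes lie near 0 in both libraries.

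The genes lower in members were led by transcripts of other lineages. Igkc, the immunoglobulin light chain, was at 14.4 CPM in members against 9465 in classical monocytes of library 1 and 15.6 against 5142 in library 2, and Igha, Ly6d, Tcf4 and Bst2 followed. At least 3 UMIs of the plasmacytoid dendritic cell markers were found in 68 of 245 (27.8%) and 28 of 185 (15.1%) classical monocytes against 1 and 1 members. At least 3 of immunoglobulin or B cell genes were found in 13 and 6 against 0 and 0. Single cells held 2590 of the 5407 and 1369 of the 1442 immunoglobulin and B cell UMIs. Irf8, a transcription factor of monocytes and dendritic cells, was at 319 against 1197 CPM and 176 against 780 CPM.

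With all cells left out that held 3 UMIs of such markers (13 and 3 members, 85 and 35 classical monocytes), 47 of 1809 genes were higher (2.6%) and 2 lower (0.111%, Gyg and Sbno2). Of the 76 higher genes, 43 were among these 47, 56.6% of the first list and 91.5% of the second, and none of the 22 lower ones remained. This alternative was added after the data had been seen. The lists then gave 4 of 9 NF-kB inhibitors, 4 of 9 pattern receptors, 5 of 9 matrix genes, 3 of 10 other chemokines, 1 of 8 chemoattractant receptors, 3 of 13 immune suppression genes and 5 of 21 hypoxia genes as higher. Nfkbia, Tnfaip3, Ccl6, Ccl9, Ccr1, Havcr2 and Trem2 were no longer counted.

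Genes were also carried from one library to the other. The same rule cut both classes in both libraries, so genes that go with the rule should carry over, and the shares below are no test. The 12 genes highest and the 12 lowest in members of 1 library were scored in the other, at 1000 UMIs per cell, as the UMIs of the first minus those of the second. With genes from library 2, a member of library 1 scored above a classical monocyte in 80.8% of pairs, and with genes from library 1, a member of library 2 did so in 71.9%. Of the 12 highest genes of library 2, 11 were past 2-fold in library 1, and of those of library 1, 8 were so in library 2. In that second case the median score was 0 in members and in classical monocytes alike, 4 of the 12 highest genes were hemoglobins, and the highest genes alone gave 65.0% of pairs. Nearly all hemoglobin UMIs of library 1's members came from 1 cell (1460 of 1500). The 12 lowest genes of each library included Igkc, Igha and Ly6d, so the scores also counted other lineages' transcripts in the classical class. Without the cells of other lineages the shares of pairs were 70.2% and 70.7%.

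Some of the higher genes came from few members. A subgroup marked by Pf4 and Arg1 (36 cells, 9.14% of members, in library 1 and 58, 13.7%, in library 2) held 96.5% and 77.0% of the members' Pf4 UMIs. It also held 66.2% and 79.3% of those of Arg1 and 71.1% and 50.3% of Spp1, but 16.3% and 30.1% of Il1rn and 18.9% and 25.6% of Ptgs2. With it left out, a choice made after the data had been seen, 49 of 1785 genes were higher (2.75%) and 18 lower (1.01%), and 46 of the 76 were among the 49. Pf4 then had ratios of 0.528 and 2.48 and Arg1 of 3.90 and 1.39, so neither was counted. Il1rn stayed at 9.79 and 6.07, Ptgs2 at 6.27 and 4.95, Clec4n at 7.60 and 4.89, F10 at 3.52 and 2.95 and Nfkbiz at 3.33 and 3.24, and Spp1 at 15.3 and 2.49. Inhba had 16.6 in library 1 and 1.70 in library 2, Vegfa 4.45 and 1.72, Ccl7 13.7 and 1.98 and Mmp12 1.30 and 1.56. None of these 4 was then counted, so neither growth factor gene was.

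Against macrophages, the members had more transcripts of blood monocyte adhesion and entry and of NF-kB feedback, and far fewer of lysosome, lipid and cell division genes. Of 4980 genes, 175 were higher (3.51%) and 353 lower (7.09%), with median log2 ratios of -0.08 and -0.16. Macrophages were deeper and had been chosen by C1q, as the members had been chosen to lack it. Macrophages held 2020275 and 1820903 UMIs in all, against 834278 and 511876 in members. The minimum of UMIs over both classes was thus met more readily by genes of macrophages. Ccr2 was 3.74 and 13.8 times higher in members and the integrin Itgal 4.97 and 10.1 times, and 6 of 12 adhesion genes were higher. Among the 8 highest were Mcemp1 (9.36 and 20.1), the protease inhibitor Slpi (7.70 and 18.9), the amplifying receptor Trem1 (6.51 and 17.1) and the glutathione reductase Gsr (7.16 and 7.71). Fibronectin (Fn1) was 3.59 and 8.02 times higher, F10 4.22 and 6.06, Inhba 4.44 and 8.17 and Ptgs2 3.42 and 7.41 times. Cebpb, a transcription factor of the acute phase response, had ratios of 2.74 and 2.91.

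Of the NF-kB subunits, Rel alone of 3 compared was counted as higher than in macrophages, with ratios of 2.91 and 3.82. Of 15 NF-kB feedback genes, 5 were higher, such as Traf1 (4.48 and 5.23) and Zc3h12a (2.36 and 3.22), and none lower. Cxcl3, which attracts neutrophils as Cxcl2 does, was 4.39 times higher in library 1 and counted as higher in library 2 too, at 69.5 and 87.9 CPM in members. Without the Pf4 and Arg1 subgroup, of which it was a leading gene, it had 15 and 9 UMIs in members, at 20.2 and 20.6 CPM. Tnf had no such difference, at 645 against 506 CPM and 64.5 against 67.5 CPM.

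On the lower side, 17 of 18 cell cycle genes were counted, with a median log2 ratio of -2.99 and -2.44. Of 20 lipid and lysosome genes, 14 were lower, among them Apoe, the lipid carrier, at 3667 against 11539 CPM and 4214 against 11993 CPM, and Ctsd, cathepsin D, at 970 against 4337 and 731 against 3550. Of 8 alternative activation genes, 5 were lower, such as the mannose receptor Mrc1, at 62.3 against 516 and 41.0 against 634 CPM. Pf4, higher in members than in classical monocytes, was lower than in macrophages (446 against 1812 and 264 against 2868 CPM), and so was Trem2 (133 against 869 and 135 against 788). The chemokine Ccl8 was at 4.79 CPM in members against 1462 in macrophages of library 1 and 13.7 against 2313 CPM.

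Against neutrophils, the other main source of Il1b and Cxcl2, 208 of 1591 genes were higher in members (13.1%) and 56 lower (3.52%), but the median log2 ratio over all genes was 0.83 and 0.37, so most genes leaned towards the members. Neutrophils were the shallowest class. The decoy receptor Il1r2 was lower in members, at 46.7 against 1406 CPM and 148 against 719. Il1rn was lower in members of library 1, at 324 against 543 CPM, and closer in library 2, at 318 against 353. Ccl2 was higher, at 645 against 8.90 CPM and 485 against 131, as was Ccr2. Retnlg, a neutrophil granule gene, was at 1.20 against 15497 CPM and 17.6 against 10799, and Camp was at 0 in members of both libraries.

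The members were also clustered within each library, with the rule genes left out, which gave 7 subgroups in library 1 and 5 in library 2. The leading genes of a subgroup defined it and are a description. A subgroup of 36 members in library 1 (subgroup 5) and of 58 in library 2 (subgroup 4) had 6 of 10 leading genes in common, Arg1, Ctsl, Cxcl3, Il7r, Pf4 and Spp1. Spp1 stood at 11398 and 5350 CPM there, Arg1 at 2060 and 1463, and the rule genes Cxcl2 at 18150 and 14180 and Thbs1 at 3124 and 3189, the highest Cxcl2 and Thbs1 levels of any subgroup in either library.

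An MHC class II subgroup, of 83 members in library 1 (subgroup 2) and 88 in library 2 (subgroup 3), also had 6 of 10 leading genes in common, Cd74, H2-Aa, H2-Ab1, H2-DMb1, H2-Eb1 and the lipase gene Lpl. H2-Ab1 stood at 2870 and 3118 CPM there, and Thbs1 at 994 and 1397. The largest subgroup of each library, with 106 members (26.9%) and 137 (32.5%), had Gsr and the phosphodiesterase gene Smpdl3a in common. Chil3 was at 4433 and 6697 CPM and Hp at 1256 and 617 in it, the highest levels of both genes in any subgroup of that library.

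Each library had a subgroup led by the heat shock gene Hspa1a, with 66 and 104 members, Hspa1a at 1019 and 1638 CPM and Hilpda at 914 and 706. Only 2 of 10 leading genes were in common, Ero1l and Hspa1a. The others included Egln3, Egln1, Hilpda and Slc2a1 in library 1 and Hspa1b, Jun, Klf2 and Atf3 in library 2. In library 1, 56 members (subgroup 4) were led by the interferon-γ target Cxcl9 and had little Thbs1, 309 CPM, with 3050 CPM of H2-Ab1. The 28 members of subgroup 6 in library 1 had 719 CPM of Ace, a non-classical monocyte gene, the highest Rel level of any subgroup, 992 CPM, and 372 CPM of Thbs1, and shared no leading gene with a subgroup of library 2. Members with Cxcl10, an interferon target, at 2855 and 3846 CPM were 19 cells in library 1 and 35 in library 2. The first of these was led by Gzma (54 of the 55 Gzma UMIs of library 1's members) and Ccl5, at 3156 CPM. Both are known from natural killer and T cells, whose part in that subgroup was not tested, and 1 cell held 41.8% of those 55 UMIs. Il1b ranged from 4789 to 9020 CPM over the 7 subgroups and from 2479 to 7179 over the 5, and Thbs1 from 309 to 3124 and from 1397 to 3189.

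**Figure D3:**
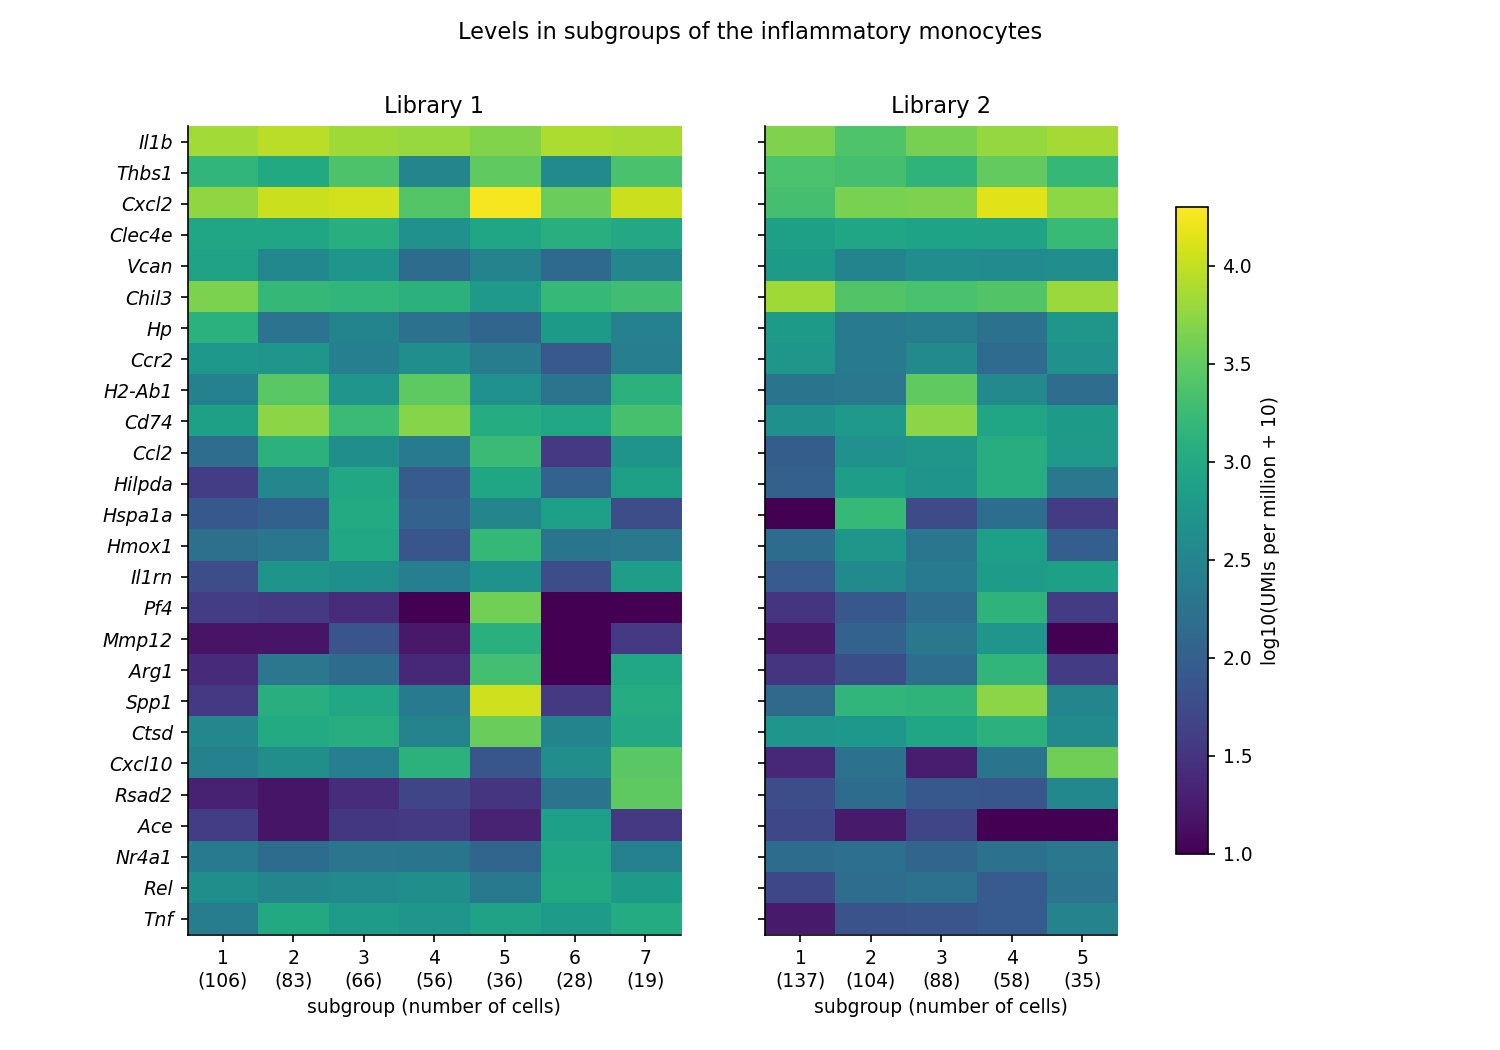
Level of 26 genes, as log10 of CPM plus 10, in the 7 subgroups of members in library 1 and the 5 of library 2; each column is a subgroup. Spp1, Arg1 and Cxcl2 are highest in subgroup 5 of library 1 and subgroup 4 of library 2, and H2-Ab1 is at 2870 and 3050 CPM in subgroups 2 and 4 of library 1 and 3118 in subgroup 3 of library 2.

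Between the libraries, the gene deleted in 1 of the genotypes is given first. Rel, at chr11:23736847-23770970 on the minus strand of mm10, had 342 UMIs in members of library 1 and 58 in library 2, or 410 CPM (368 to 456) and 113 CPM (86.0 to 146). The ratio of library 2 to library 1 was 0.276 (0.206 to 0.366). At 1000 UMIs per cell it was seen in 35.6% and 7.72% of members (unthinned 50.3% and 9.48%). Counts at the 3′ end can come from a transcript that lacks the loxP-flanked part, so this does not check the labels. Rel was also lower in library 2 in classical monocytes, at 166 and 81.4 CPM, and in macrophages, at 141 and 29.7 CPM. The other subunits in members were Nfkb1 at 145 and 113 CPM, Rela at 94.7 and 60.6, Nfkb2 at 57.5 and 33.2 and Relb at 34.8 and 39.1, none of them past a factor of 2.

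Of 3391 genes in members, 44 were at least 2 times higher in library 2 (1.3%) and 92 at least 2 times lower (2.71%), and the median log2 ratio was -0.05. Without barcodes found in both libraries these were 54 and 99. In macrophages 80 of 5672 were higher (1.41%) and 147 lower (2.59%). With 1 library per genotype and no ending tied to a genotype, genotype, library and depth cannot be told apart in these differences. Tnf, the cytokine tumour necrosis factor, had 645 CPM in members of library 1 but 64.5 in those of library 2, a ratio of 0.100 (0.0681 to 0.142), and was seen in 34.2% and 7.32% of members at 1000 UMIs (unthinned 46.7% and 6.16%). Its relative Tnfsf9, the 4-1BB ligand, was at 199 and 17.6 CPM. Of 4 cytokine genes, 3 were lower in library 2, the last being Osm, oncostatin M, at 261 and 99.6 CPM. Macrophages had the same order, with Tnf at 506 and 67.5 CPM.

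Of 16 NF-kB feedback genes, 3 were lower, Nfkbia at 3300 and 1502 CPM, Nfkbiz at 986 and 326 and Nfkbid, and the list median was -0.68 on the log2 scale. Of 13 other chemokines, 5 were lower, such as Ccl7, at 859 and 317 CPM, and the interferon-γ target Cxcl9, at 367 and 160. Of 21 immediate early genes, 4 were lower, such as the phosphatase Dusp2 at 460 and 78.1 CPM, and 1, Klf4, was higher, at 125 and 311. Cxcl1 (137 and 48.8 CPM) and the adhesion molecule Icam1 (180 and 68.4) were lower as well.

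No gene passed a factor of 2 in either direction among 10 pattern recognition receptors, 17 immune suppression genes, 12 matrix genes, 9 MHC class II genes or 10 chemoattractant receptors, whose median log2 ratios were 0.01, -0.22, -0.12, -0.48 and 0.01. Of all 3391 genes 1.3% were higher and 2.71% lower, so a count of 0 in lists this short is near the overall share. Il1rn, at 324 and 318 CPM, and Arg1, at 340 and 274, were close in the 2 libraries. On the higher side, Il1r2, the decoy receptor for interleukin-1, had 46.7 CPM in members of library 1 and 148 in those of library 2, and hexokinase 2 (Hk2) at 189 and 399. The iron-binding lipocalin Lcn2 was at 42.0 and 143 CPM.

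In macrophages the MHC class II genes had other values, and the difference was not tested. They were lower in library 2 for 7 of 10, with a median log2 ratio of -1.69, against 0 of 9 and -0.48 in members, and Cd74 had -1.83 and -0.69. Among the largest differences some rested on few cells. The hemoglobin UMIs of library 1's members came to 1460 of 1500 from 1 cell.

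**Figure D4:**
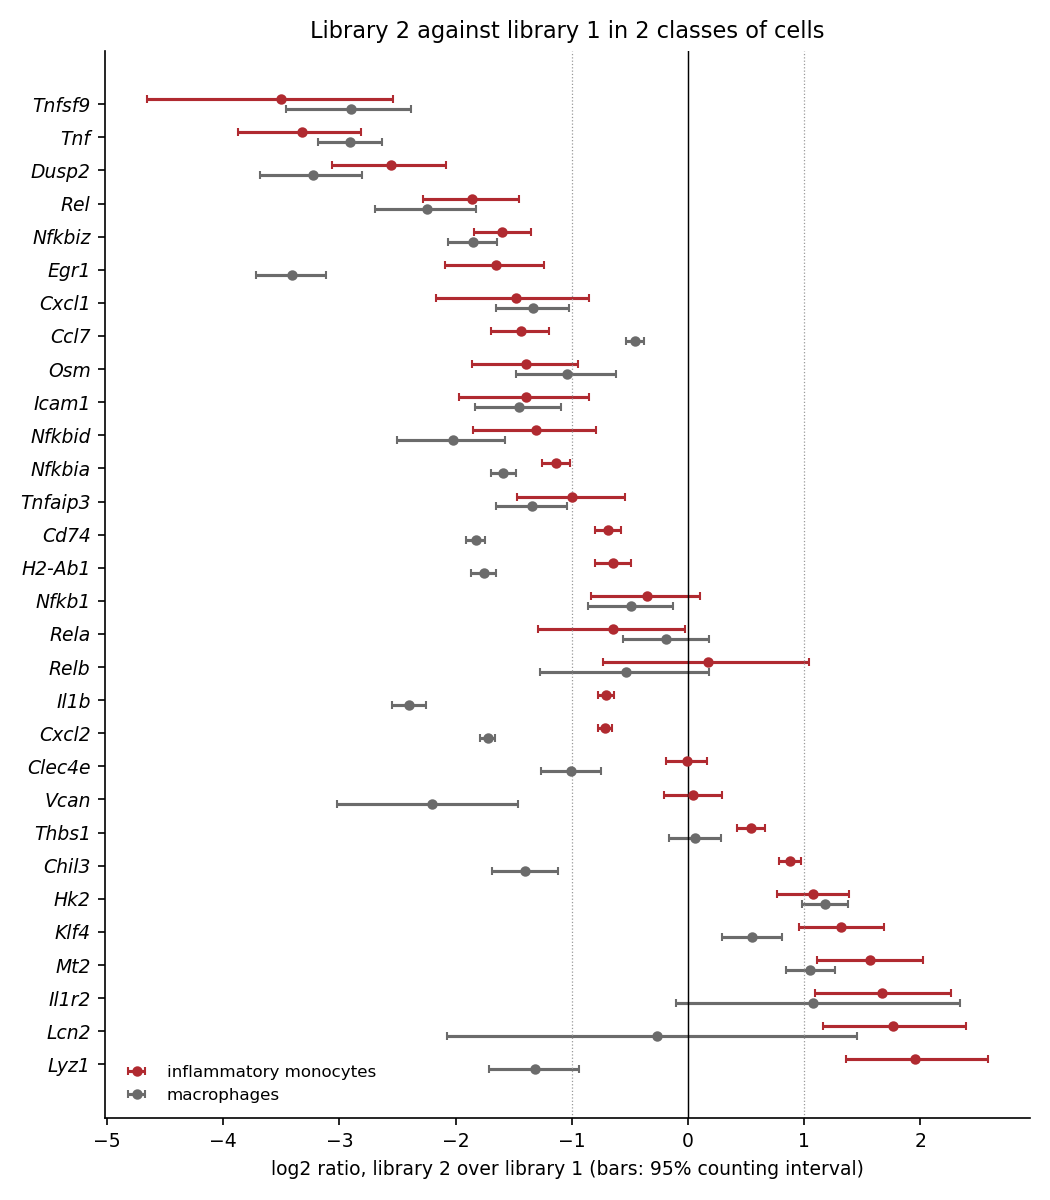
Log2 ratio of library 2 to library 1 for 30 genes in members and in macrophages; points are ratios of CPM and bars are exact binomial 95% intervals for counting error only. Tnf lies at -3.32 in members and -2.90 in macrophages and Rel at -1.86 and -2.25, while Thbs1 in members lies above 0.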

How the data were processed

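Droplet 3′ libraries of 2 samples, 1 per genotype, were deposited in 1 matrix of 31053 genes by 18252 barcodes. The authors deposited its values as raw UMI counts, without normalisation. Cell Ranger and mm10 are named in the submitters' processing notes, and per the file headers software version 3.0.2 wrote the file. Other settings are not given in the sources used here. Library 1 held 49129318 UMIs (median 1588 per barcode) and library 2 held 73507228 (median 4290).

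The members, comparison classes, gene lists and alternatives were chosen with earlier results of these data known. No doublet caller was run. The UMIs of a class were summed in each library and scaled to 1000000 (CPM). Intervals at 95% were exact Poisson for levels, exact Clopper-Pearson for shares and exact conditional binomial for ratios. A limit for a count of 0, and a fold against 0, use 3 counts. The 35 symbols given to several genes were left out of ratios, and 408 of 410 list genes in 26 lists were found. Comparisons between libraries needed 50 UMIs in all and 20 CPM in 1 library. Named genes are the 12 highest and 12 lowest against classical monocytes, 8 and 8 against macrophages, 5 and 5 against neutrophils and 12 and 12 between libraries, ranked by the smaller of both libraries' log2 ratios where there are 2. To these come up to 4 genes of each list with the largest ratios, while other list genes were picked with their values seen. Subgroups came from Leiden clustering within each library. The code for ratios was checked on simulated data. Alternatives were other limits on cells, margins, UMIs per gene, denominators and thinning. Python 3.11.15, numpy 2.4.6, scipy 1.17.1, pandas 2.3.3, scanpy 1.11.5, leidenalg 0.10.2, igraph 0.11.9 and matplotlib 3.10.9 were used. One gene is not reported here.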

Additional observations from a re-analysis of the deposited data

Results flagged for a closer look

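Lyz1, a lysozyme gene, had opposite directions in the libraries when members were set against macrophages. Its log2 ratio was -1.39 in library 1 (34 and 216 UMIs) and 1.89 in library 2 (81 and 78 UMIs), a difference of 3.28 on the log2 scale. With 1 library on each side this difference was not tested. In members its UMIs came from 15 cells of library 1, 1 of which held 13 of them, and from 20 cells of library 2, 1 of which held 24.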

How the results depend on the processing

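Of 804 values of the 74 named genes under the alternatives, 803 kept their direction and 759 stayed within the main counting interval. The exception was Igkc against classical monocytes, at 0.57 (mean log2) without cells carrying other lineages' markers. For comparisons between classes each value was the mean log2 ratio of both libraries, which hides a reversal within 1 library. Pf4 against classical monocytes reversed in library 1 without its subgroup, at ratios of 0.528 and 2.48. The genes had been named for large ratios in these same cells, so their kept direction is no test. The members' share of the pool moved to 54.2% and 50.4% with a margin of at least 3 UMIs, to 67.7% and 68.9% without other lineages' cells, and to 69.1% in library 2 with at least 1000 UMIs per cell. Thinning to 1000 UMIs before the choice of cells gave 45 higher and 6 lower genes against classical monocytes, 92 and 109 against macrophages, and 25 higher in library 2. A minimum of 10 UMIs per gene gave 171 and 171 against classical monocytes, 342 and 837 against macrophages, 503 and 222 against neutrophils, and 188 higher and 274 lower in library 2. Pigment genes under 0.1% left 8 lower than in classical monocytes. Without other lineages' cells 47 were higher and 2 lower there, and without the Pf4 and Arg1 subgroup 49 were higher, both choices made after the data were seen. Neutrophils of at least 20 S100a8 and S100a9 UMIs gave 325 higher. Genes carried between libraries gave 76.1% at 500 UMIs and 70.2% without other lineages' cells when scored in library 1, and 80.2% with 25 genes each way in library 2. Other counts stayed within 1.5 times, and for those that moved the cause was not tested beyond the fewer cells or genes used. Depth limits library 2 most, where a count of 0 allows 5.86 CPM in members. For 10 pairs of gene and alternative both sides held at most 3 UMIs and gave no value. No paired analysis was possible because each genotype had 1 library.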

Other observations

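None of 12 interferon response genes was counted against classical monocytes (3.84% of all genes were higher and 1.11% lower). Against macrophages 5 of 22 were higher and 1, Iigp1, lower (3.51% and 7.09% of all genes), with Ifi205 at ratios of 3.24 and 6.08 and Slfn1 at 3.39 and 4.78. Apoe, known as a macrophage lipid carrier, was in 77.3% and 79.7% of members at 1000 UMIs per cell, although the members held at most 1 UMI of the C1q genes. The orphan nuclear receptor genes Nr4a1 and Nr4a2 were higher in members than in macrophages, at 4.02 and 5.96 times and 4.89 and 7.27 times.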
